A study of Mus musculus with 6 samples.

Results

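To examine the channels by which auditory neurons fire fast and precisely timed spikes, the 7 genes Scn1a, Scn8a, Scn4b, Kcna1, Kcna2, Kcnc1 and Hcn2 were followed in cochlear RNA-sequencing of young and old C57BL/6 mice. The genes were listed by name as voltage-gated channel genes of such neurons, by a rule that uses no measured value but was written with earlier results of these data known, and they are 7 of the 25419 genes in the table and 7 of the 19465 genes that were abundant enough to be tested. The tissue was the basilar membrane of the cochlea, taken from young mice (1 month by the sample labels, called 4 weeks in the paper) or from old mice (12 months), with 3 samples per age. All mice were C57BL/6, an inbred strain that loses hearing early in life, and each sample mixed the tissue of 3 mice, so that the values are averages over animals and over all cell types of the dissected tissue. The sample labels do not state whether the same mice gave tissue to more than 1 sample, and p-values measure the spread between these samples.

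A spike starts when voltage-gated sodium channels open. Their alpha subunits form the pore, and a short loop then plugs it from the inside, while beta subunits bind the pore protein and change how fast it recovers. Potassium channels end the spike. Channels of the Kv1 family open at low voltage and hold an auditory neuron to few, well-timed spikes, whereas channels of the Kv3 family open only near the peak of a spike and shorten it. HCN channels open on hyperpolarization and carry a depolarizing current that sets the resting voltage. In the cochlea these channels are known from the spiral ganglion neurons, whose myelinated axons form the auditory nerve and hold sodium channels at the nodes and Kv1 channels beside them.

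Short conserved stretches of the reading frames mark the channel families, and they are shown for 5 of the 7 genes. Each stretch is 72 bases of the most abundant transcript in the GENCODE M21 annotation (GRCm38), printed 5' to 3' on the coding strand. For the Kv1 and HCN channels the capitals mark the 6 codons of the selectivity filter, the ring of residues that passes the ions.
Kcna1: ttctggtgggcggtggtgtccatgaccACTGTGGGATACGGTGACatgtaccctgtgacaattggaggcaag
Kcna2: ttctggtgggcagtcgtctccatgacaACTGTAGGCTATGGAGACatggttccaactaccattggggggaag
Hcn2: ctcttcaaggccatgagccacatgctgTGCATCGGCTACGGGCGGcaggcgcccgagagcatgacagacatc
The Kcna1 stretch lies at chr6:126642198-126642269 on the minus strand in exon 2 of 2, and the Kcna2 stretch at chr3:107105197-107105268 on the plus strand in exon 3 of 3. The Hcn2 stretch lies at chr10:79728926-79728997 on the plus strand in exon 4 of 8. Kcna1 and Kcna2 were identical at 54 of the 72 bases, and Kcna1 and Hcn2 at 32. The HCN family carries a filter of its own that lets both sodium and potassium through.

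For the sodium channel alpha subunit gene Scn8a the capitals mark the 4 codons of the inactivation gate, the loop that plugs the pore. For Scn4b they mark 14 codons of the cytoplasmic tail, which can block the open pore in place of that loop.
Scn8a: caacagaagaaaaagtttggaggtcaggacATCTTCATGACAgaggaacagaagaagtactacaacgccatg
Scn4b: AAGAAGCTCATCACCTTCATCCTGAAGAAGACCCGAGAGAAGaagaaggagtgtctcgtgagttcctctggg
The Scn8a stretch lies at chr15:101032308-101033534 on the plus strand and is split over exons 24 and 25 of 27, and the Scn4b stretch at chr9:45149352-45150438 on the plus strand over exons 4 and 5 of 5. Likeness within a family could let reads move between genes, so the share of 50-base windows of each gene that transcripts of other genes also hold was counted. It was 5.3% for Scn1a, shared with Scn2a, Scn3a and Scn9a, at most 0.536% for Scn8a, Kcna2 and Kcnc1, and 0 for Scn4b, Kcna1 and Hcn2. No exon of another annotated gene on either strand overlapped the exons of the 7 genes.

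All 7 channel genes were lower in old cochlea. The level of a gene is given as FPKM, fragments scaled to transcript length and to library size, summed over its transcripts, so that genes of different length can be compared. In old samples the mean level was 47.2 to 54.5% of the young mean, and all 3 old samples lay below all 3 young samples for 7 of 7 genes, as they did for 16.1% of all genes tested. The change was tested on log2(FPKM + 0.1) with limma, with the Benjamini-Hochberg adjustment over all 19465 genes and a threshold of 0.05. All 7 passed as lower, where 3.81% of all genes did (741 genes, against 1099 higher). The median log2 change, old minus young, was -0.95 over the 7 genes and 0.0088 over all genes, and the limma adjusted p lay between 0.0286 and 0.0417. The unadjusted p was at most 0.00317, and 13.1% of all genes were lower at an unadjusted p below 0.05 (2554 genes, against 2849 higher). The exact two-sided permutation test gave p = 0.1 for each gene, the smallest value that 3 samples against 3 allow. In such mixed tissue, fewer neurons and less RNA per neuron cannot be told apart.

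The calls at the adjusted threshold rested on all but 1 of the samples. With young replicate 1 left out, the limma adjusted p of the 7 genes lay between 0.0791 and 0.129, and with young replicate 2 left out it lay between 0.0715 and 0.143. For the old samples it lay between 0.1004 and 0.126 when replicate 1 was left out, between 0.116 and 0.156 for replicate 2 and between 0.101 and 0.128 for replicate 3. In each of these 5 fits 0 of 7 passed. Without young replicate 3 all 7 passed, with 0.0135 to 0.0376. The direction was the same in all 6 of these fits for all 7 genes, with log2 changes from -1.24 to -0.65 and unadjusted p up to 0.0196. The share of all genes that were lower was 0.375% in the fit that lacked young replicate 1, 0.0976% where young replicate 2 was left out, 3.57% where young replicate 3 was, 0 for old replicate 1 and 0.00514% each for old replicates 2 and 3.

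**Figure D1:**
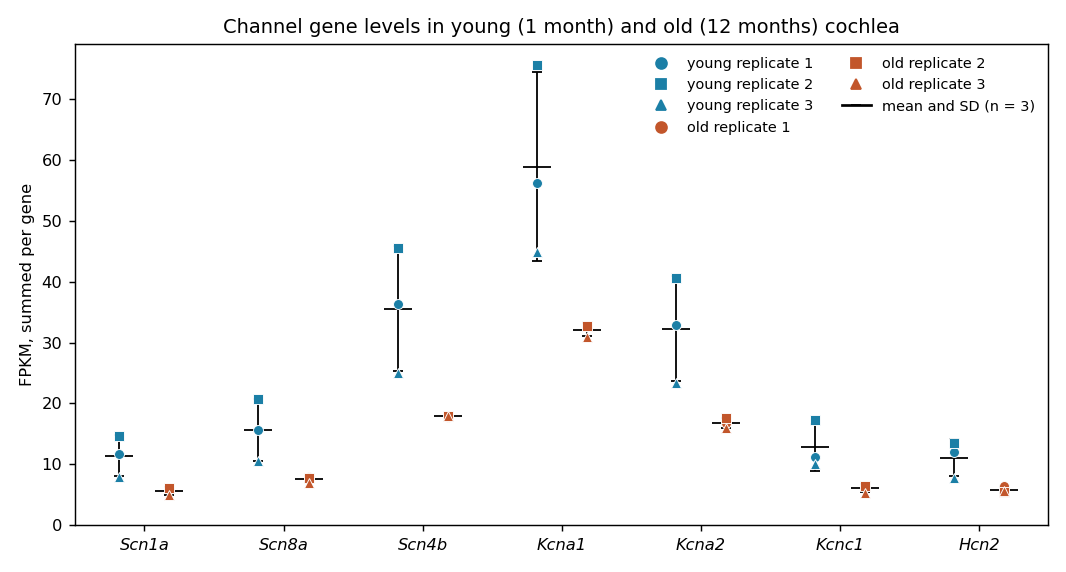
Levels of the 7 channel genes (vertical axis, FPKM summed per gene) in each young and old sample, with the mean and SD (n = 3) of each group. The 3 old samples sit close together and below every young sample for all 7 genes, and young replicate 2 is the highest and young replicate 3 the lowest young sample for each.

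Among the sodium channel genes, Scn1a encodes the alpha subunit Nav1.1, which carries current in the soma and axon of many fast-firing neurons. Its level was 11.7, 14.7 and 7.90 FPKM in young replicates 1 to 3 and 5.89, 6.10 and 4.87 FPKM in old replicates 1 to 3. The lowest young sample was above the highest old sample by 1.80 FPKM. The mean was 11.4 ± 3.40 FPKM (SD, n = 3) in young and 5.62 ± 0.657 (SD, n = 3) in old samples. The log2 change was -0.97 (SE 0.22, limma adjusted p = 0.0408). Scn8a encodes Nav1.6, the main sodium channel of mature nodes and of the site where spikes start. It was at 15.7, 20.7 and 10.5 FPKM in the young and 7.90, 7.79 and 6.97 FPKM in the old samples. The groups did not overlap, and the log2 change was -0.99 (SE 0.23, limma adjusted p = 0.0401).

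Scn4b encodes the beta4 subunit, whose tail lets sodium current flow again as the spike ends and so favors rapid refiring. It was the most abundant of the 3 sodium channel genes, with 36.3, 45.5 and 24.97 FPKM in young and 17.8, 17.9 and 17.9 FPKM in old samples. The coefficient of variation was 0.455% in the old and 28.9% in the young samples. The estimated fragment numbers carry a counting error of 2.77 to 3.10% in the old samples, so that the old samples agreed within counting error. The log2 change was -0.95 (SE 0.20, limma adjusted p = 0.0310), which is 1.93-fold lower in old mice. Scn4b has 1 annotated transcript of 5 exons, so that its level does not depend on how fragments were divided between transcripts.

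Of the 3 potassium channel genes, the Kv1 genes had the higher levels. Kcna1, which encodes Kv1.1, was the most abundant of the 7 genes, with 56.3, 75.6 and 44.9 FPKM in young and 32.8, 32.7 and 30.8 FPKM in old samples. The gap between the groups was 12.1 FPKM. Its log2 change of -0.84 (SE 0.17, limma adjusted p = 0.0297), 1.79-fold lower, was the smallest of the 7. Kcna2 encodes Kv1.2, which joins Kv1.1 in mixed channels of the axon. It was at 32.9, 40.7 and 23.4 FPKM in young and 16.8, 17.7 and 15.95 FPKM in old samples. These groups were also apart, and the log2 change was -0.91 (SE 0.19, limma adjusted p = 0.0306).

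Kcnc1 encodes Kv3.1, the channel that shortens spikes. Its level was 11.1, 17.2 and 10.03 FPKM in young and 6.39, 6.42 and 5.32 FPKM in old samples. Young replicate 2 stood above both other young samples, which were close to each other. The log2 change of -1.03 (SE 0.21, limma adjusted p = 0.0286), 2.05-fold lower, was the largest of the 7. Hcn2 encodes a subunit of the channels opened by hyperpolarization and tuned by cyclic nucleotides. It was at 12.0, 13.5 and 7.70 FPKM in young and 6.33, 5.40 and 5.55 FPKM in old samples. The groups were separated by 1.37 FPKM, the narrowest gap of the 7, and the log2 change was -0.89 (SE 0.21, limma adjusted p = 0.0417).

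The 7 genes varied together among the young samples. Young replicate 2 was highest and young replicate 3 lowest of the young for 7 of 7 genes, an order that 17.6% of all genes tested had. The coefficient of variation was 26.3 to 32.5% in young and 0.455 to 11.7% in old samples. The estimated number of fragments behind a gene in a sample was 211 to 5869, and the lowest of these carries a counting error of 6.88%, so that the spread among the young samples was larger than counting error.

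By mean level over the 6 samples, the order was Kcna1, Scn4b, Kcna2, Scn8a, Kcnc1, Scn1a and Hcn2. Each of the first 4 steps of this order held in 6 of 6 samples, although Scn4b exceeded Kcna2 by a factor of 1.02 to 1.12 only. Kcnc1 was above Scn1a in 5 of 6 samples and Scn1a above Hcn2 in 3 of 6, so that these neighbors did not differ beyond their spread. Over the 21 ratios between pairs of the genes, each ratio had a coefficient of variation of 3.78 to 14.9% over all 6 samples. The ratios of 1 pair did not overlap between ages, that of Kcna1 to Kcnc1, with 5.05, 4.39 and 4.48 in young and 5.13, 5.10 and 5.80 in old samples. The largest difference of a ratio between ages was 0.20 on the log2 scale, and the smallest adjusted p over the 21 pairs was 0.808 (exact permutation test).

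The table lists 31 transcripts of the 7 genes, of the 40 in the annotation, and 20 passed the filter, a mean FPKM of 0.1 or more. Of these 20, 18 had a negative log2 change, and all 3 old samples were below all young samples for 9, against 12% of the 38764 transcripts tested. The share of all transcripts with a negative change was not computed. The 20 are parts of the same 7 genes, so that their directions are not separate from those of the genes. None of the 20 passed as lower or higher when adjusted over all transcripts with limma, where 0.199% of transcripts were lower, and the smallest adjusted p was 0.0766. At an unadjusted p below 0.05, 9 were lower and 0 were higher, against 7.98% lower over all transcripts. Transcripts listed at 0, under 0.001 FPKM, in all 6 samples numbered 7.

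Scn1a was read as a pair of transcripts with different first exons. Scn1a-204, of 1998 codons, made up 60.3 to 72.2% of the gene in young and 53.1 to 67.6% in old samples, and its log2 change was -1.03 (SE 0.21). Scn1a-203, of 2009 codons, made up 27.8 to 38.5% in young and 32.3 to 46.9% in old samples. Scn8a was divided over more transcripts. Scn8a-203, of 1978 codons, held 40.9 to 45.9% of the gene in young and 40.7 to 55.1% in old samples. The share of Scn8a-205, which encodes a protein of the same length, was 21.6 to 28.6% in young and 32.35 to 34.6% in old samples. These ranges did not overlap (exact permutation p = 0.1), but the adjusted p over the 13 shares tested was 0.827.

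Kcna1-201 held 87.8 to 90.1% of Kcna1 in young and 88.8 to 92.2% in old samples, and Kcna2-201 held 87.9 to 91.0% of Kcna2 in young and 80.2 to 94.1% in old samples. Each of these genes has its reading frame on 1 exon, so that the transcripts of each encode proteins of equal length, 495 codons for Kcna1 and 499 for Kcna2. Kcnc1 makes proteins with different ends. Kcnc1-203, with 4 exons and 585 codons, and Kcnc1-201, with 2 exons and 511 codons, had similar values, with means of 6.96 and 3.29 FPKM for the first and 5.84 and 2.75 FPKM for the second in young and old samples. Their log2 changes were -1.01 (SE 0.24) and -1.02 (SE 0.26), with limma adjusted p of 0.104 and 0.115. The pair of Hcn2 transcripts encodes the same 863 codons, and the share of Hcn2-202 ran from 52.7 to 95.6% in young and from 23.9 to 87.4% in old samples. The division of Hcn2 between its transcripts therefore varied widely within each age, and the Hcn2 sum was the steadier value.

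**Figure D2:**
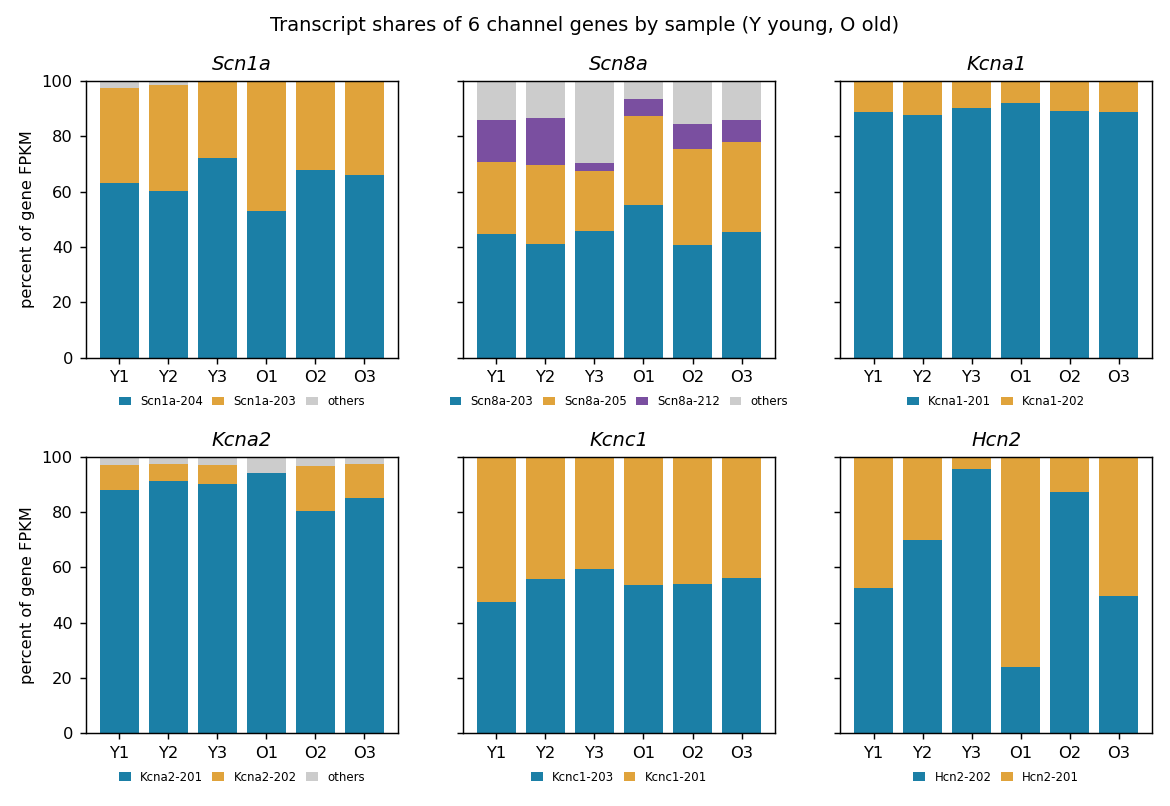
Share of each gene's FPKM (vertical axis, percent) held by each transcript whose mean reached 1 FPKM, in young (Y) and old (O) samples. Each bar is a sample, and gray stands for all other transcripts of the gene. The shares of Kcna1 and Kcnc1 were similar in all samples, whereas those of Hcn2 ran from 23.9 to 95.6% for Hcn2-202.

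As the 7 genes moved together, their promoters were compared. RefSeq entries (GRCm38.p6) covering 250 bases before the RefSeq start matched 6 of the 7 genes, with 7 entries because Scn8a has 2 starts, and the Kcna1 promoter was not analysed here. Of the 250 bases, 229 for Scn4b, 211 for Scn1a and 78 for Kcna2 lie in annotated exons, so that these windows are not upstream sequence alone. The windows held 4 CG dinucleotides for Scn1a, 18 for Kcna2, 23 for Scn4b, 16 for Hcn2, 30 for Kcnc1 and 30 and 9 for the starts of Scn8a, against a median of 6 over all promoters. The GC box CCGCCC (or GGGCGG on the other strand), the motif that Sp1 and related factors can bind, was in the promoters of Kcnc1 and Hcn2 and in 32.7% of all 32851 promoters of this length. The 2 are shown with the motif in capitals.
Kcnc1 promoter: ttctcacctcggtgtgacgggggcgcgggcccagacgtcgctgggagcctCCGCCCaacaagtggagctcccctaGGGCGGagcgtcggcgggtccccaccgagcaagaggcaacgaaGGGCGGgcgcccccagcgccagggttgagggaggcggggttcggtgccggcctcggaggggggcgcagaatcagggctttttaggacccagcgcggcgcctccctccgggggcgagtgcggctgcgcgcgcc
Hcn2 promoter: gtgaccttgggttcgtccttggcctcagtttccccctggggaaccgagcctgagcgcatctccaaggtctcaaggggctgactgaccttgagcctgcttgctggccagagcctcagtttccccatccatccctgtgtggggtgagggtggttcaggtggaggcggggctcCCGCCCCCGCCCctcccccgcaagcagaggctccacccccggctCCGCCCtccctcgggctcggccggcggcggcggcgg
The Kcnc1 promoter (chr7:46396218-46396467, plus strand) held 3 copies, and the Hcn2 promoter (chr10:79716384-79716633, plus strand) also held 3 copies. CCAAT, or ATTGG, was in the windows of Scn1a and Scn4b and in 33.8% of all. TATAAA (or TTTATA) was in none of the 7 entries and in 12.4% of all. Of the letters of the element bound by the neuronal repressor REST, TTCAGCACC (or GGTGCTGAA) was in none and in 0.301% of all, and GGACAGC (or GCTGTCC) was in none and in 5.28% of all. None of these motifs was in the windows of all 6 genes.

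The other subunits of the same families showed how far the fall extended. The lists of other channel subunits and their partners held 56 genes, of which 53 were tested, and 10 were lower and 0 higher with limma (3.81 and 5.65% of all genes). Their median log2 change was -0.41. Without young replicate 1, young replicate 2 or any 1 old replicate 0 of them passed, and 14 passed without young replicate 3. Of the other sodium channel subunits, 0 of 8 tested passed, and the median log2 change was -0.12. At an unadjusted limma p below 0.05, 1 was lower and 2 were higher, against 2554 and 2849 of all 19465 genes. Scn2b was at means of 2.49 and 1.86 FPKM in young and old samples, and Scn7a, a sodium-sensing relative found in glia and other cells, at 2.39 and 3.41 FPKM (limma adjusted p = 0.335 and 0.109). The pore genes that share windows with Scn1a were at low levels, with means of at most 1.87 FPKM in either age.

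Of 16 other Kv1 subunits and Kv1 partners, 4 were lower and 0 higher, with a median of -0.56. The 4 were Kcnab2, the beta subunit that binds Kv1 channels from the inside, Cntn2, the adhesion protein that anchors them beside the nodes, and Adam23 and Lgi3, membrane and secreted proteins of the LGI complex that Kv1 channels join. Kcnab2 was at 52.7, 71.5 and 37.3 FPKM in young and 22.0, 28.9 and 24.7 FPKM in old samples, which gave -1.05 on the log2 scale (SE 0.22, limma adjusted p = 0.0334). Adam23 was at 34.8, 45.7 and 26.01 FPKM in young and 15.3, 15.2 and 16.1 FPKM in old samples (log2 change -1.15, SE 0.19, limma adjusted p = 0.0195). Both were lowest in young replicate 3 among the young, as the 7 channel genes were. Cntn2 and Lgi3 changed by -1.08 and -1.04 on the log2 scale. Without young replicate 1, young replicate 2 or any 1 old replicate these calls were lost.

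Of the HCN list, Pex5l, the HCN trafficking partner, was at 19.0, 23.7 and 13.7 FPKM in young and 11.8, 12.8 and 11.1 FPKM in old samples. The groups of Pex5l did not overlap, and it missed the threshold (limma adjusted p = 0.0819). Hcn4 was at means of 1.49 and 0.952 FPKM, with a limma adjusted p of 0.236.

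Of 22 other neuronal potassium channels, 4 were lower and 0 higher, with a median log2 change of -0.29. Kcnq3, a subunit of the M-current channel that restrains firing, was at 2.26, 2.61 and 2.34 FPKM in young and 1.10, 0.910 and 0.818 FPKM in old samples (log2 change -1.27, SE 0.21, limma adjusted p = 0.0210). Kcnma1, the calcium-activated BK channel that hair cells also use, fell from 18.0 ± 1.79 to 10.4 ± 1.03 FPKM (SD, n = 3 each), and unlike the 7 genes it was nearly even over the young samples, at 19.2, 18.8 and 15.9 FPKM. Kcnk10, a leak channel, fell from 1.19 to 0.358 FPKM. Kcnk1 and Kcnn2, the most abundant leak and small-conductance channel genes, were at means of 119 and 101 FPKM and of 17.5 and 19.1 FPKM in young and old samples, with overlapping groups (limma adjusted p = 0.172 and 0.4496).

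The scaffold that holds channels at the start of the axon and at nodes changed in part. Of 12 genes 4 were lower and 0 higher, with a median log2 change of -0.28. Sptbn4, the betaIV spectrin of these sites, was at 7.22, 10.1 and 4.90 FPKM in young and 3.25, 3.45 and 3.17 FPKM in old samples (log2 change -1.09, SE 0.25, limma adjusted p = 0.0395). Fgf12, an intracellular partner of sodium channels, changed by -1.27 (SE 0.20, limma adjusted p = 0.0183), and the paranodal adhesion genes Cntn1 and Cntnap1 by -0.55 and -0.81. The 2 most abundant genes, Ank3, the ankyrin that anchors sodium channels, and Nfasc, its adhesion partner, were at means of 53.5 and 51.7 FPKM and of 31.2 and 31.4 FPKM in young and old samples, with log2 changes of -0.06 and 0.0085 (SE 0.13 and 0.08). Ank3 and Nfasc also have forms in other cell types of the tissue. Of the 12, 5 were lower without young replicate 3, and leaving out any 1 other sample left 0.

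**Figure D3:**
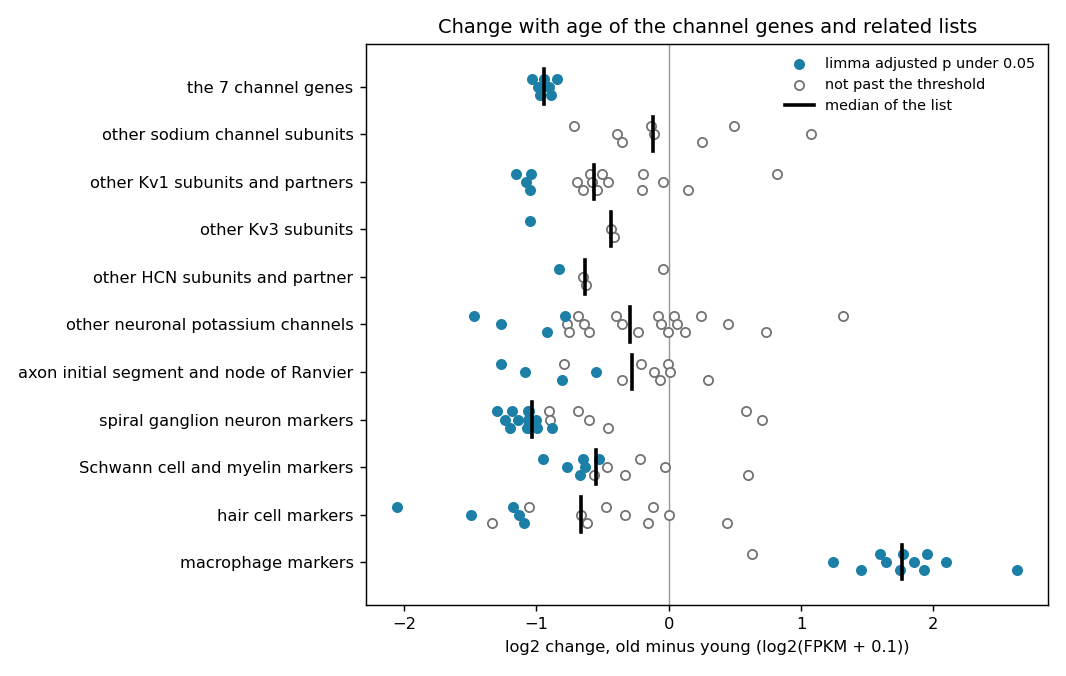
Log2 change, old minus young, of each tested gene (horizontal axis, log2(FPKM + 0.1)) by list, with filled points past the limma threshold and a bar at each median. The 7 channel genes sit between -1.03 and -0.84, close to the neuron markers with a median of -1.03, whereas the other sodium channel subunits spread to both sides of 0.

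Most neuron markers were lower as well, several of which are general neuronal genes. Of 20 markers listed for spiral ganglion neurons, all of which passed the filter, 13 were lower and 0 higher, with a median log2 change of -1.03, and their summed level was 1001 to 1807 FPKM in young and 652 to 734 FPKM in old samples. Snap25, a protein of vesicle release, was at 335, 439 and 210 FPKM in young and 135, 144 and 135 FPKM in old samples, and Nefl, the light neurofilament, at 204, 236 and 127 FPKM in young and 85.6, 90.1 and 86.2 FPKM in old samples. Both had the order of the young samples that the channel genes had. Stmn3 and Syt2 changed by -1.07 and -1.06 on the log2 scale. Slc17a6, a glutamate transporter gene placed in the list of inhibitory and central neurons, was lower as well, from 14.0 ± 3.98 to 5.76 ± 0.398 FPKM (SD, n = 3 each). The calls of the neuron markers fell from 13 to 1 without young replicate 1, and to 0 without young replicate 2 or any 1 old replicate.

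The channel genes were then set against the neuron markers of the same sample. The reference was the mean of log2(FPKM + 0.1) over the 19 markers whose mean reached 1 FPKM, which itself changed by -0.85. The log2 ratio of a channel gene to this reference differed between ages by -0.19 for Kcnc1, -0.14 for Scn8a, -0.13 for Scn1a, -0.10 for Scn4b, -0.06 for Kcna2, -0.05 for Hcn2 and 0.0047 for Kcna1. The old ratios were below all young ratios for 2 of 7, Scn4b and Kcna2, and the smallest adjusted p over the 7 genes was 0.35 (exact permutation test), where no p below 0.1 is possible. Among the young samples, the SD of the log2 levels was 0.376 to 0.486 and that of the ratios 0.0099 to 0.197. For Kcna2 the log2 ratios were 0.11, 0.11 and 0.13 in young and 0.0953, 0.03 and 0.05 in old samples, and for Kcnc1 -1.44, -1.12 and -1.08 in young and -1.28, -1.41 and -1.52 in old samples. With the median of the markers as the reference the differences ran from -0.05 for Kcnc1 to 0.15 for Kcna1, so that the sign of most of these small differences depended on how the markers were averaged.

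**Figure D4:**
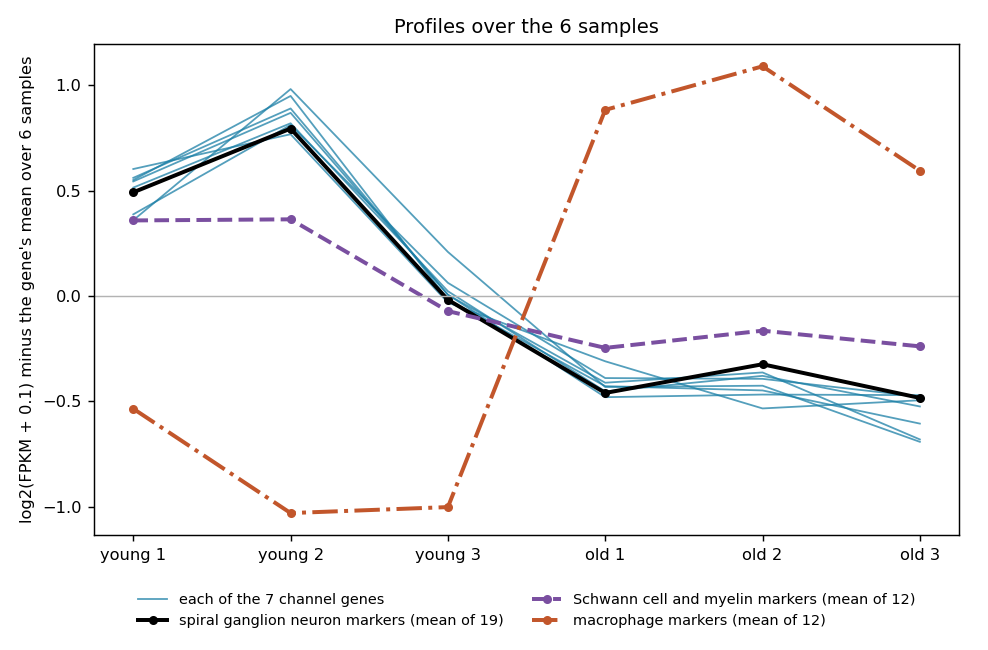
Level of each channel gene and mean level of 3 marker lists in each sample, as log2(FPKM + 0.1) minus the gene's mean over the 6 samples (vertical axis). Lines only join the values of a gene or list, since samples of an age have no order. The 7 channel genes lie near the neuron markers in all 6 samples, whereas the Schwann cell markers fall less and the macrophage markers rise.

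Other cell types moved as well. Of 12 Schwann cell and myelin markers 6 were lower and 0 higher, with a median log2 change of -0.55 and a summed level of 4066 to 4898 FPKM in young and 3511 to 3884 FPKM in old samples. Pmp22, a protein of compact peripheral myelin, fell from 233 ± 41.7 to 159.5 ± 8.89 FPKM (SD, n = 3 each), while S100b and Mbp did not pass. Leaving out young replicate 1, young replicate 2 or any 1 old replicate left 0 of the 6, and 8 passed without young replicate 3. With the 12 Schwann cell markers as the reference, which changed by -0.43, the channel genes differed by -0.60 to -0.41. All old ratios were below all young ratios for 7 of 7, with an exact permutation p of 0.1 each, the smallest possible. The 7 ratios share the same reference, and the share of all genes with such ratios was not computed. Of 15 hair cell markers 5 were lower (median -0.66), with sums of 229 to 323 FPKM in young and 169.5 to 184 FPKM in old samples, and young replicate 3, the lowest young sample for the channel genes, had the highest hair cell sum. When young replicate 1 or young replicate 2 was left out 1 hair cell marker was lower, when young replicate 3 was left out 3, and when any 1 old replicate was left out 0.

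Of 12 macrophage markers 11 were higher and 0 lower, with a median log2 change of 1.76 and sums of 133 to 207 FPKM in young and 714 to 799 FPKM in old samples. Lyz2 rose from 72.7 ± 13.1 to 450.2 ± 56.3 FPKM (SD, n = 3 each). When young replicate 1 was left out 8 passed, when young replicate 3 was left out 9, and when young replicate 2 or any 1 old replicate was left out 1. Over all genes, 317 were higher without young replicate 1, 52 without young replicate 2 and 750 without young replicate 3. The counts over all genes were 5, 15 and 11 without old replicates 1, 2 and 3. Of 8 tested central glia markers 0 passed (median -0.36). At an unadjusted limma p below 0.05, 1 was higher and 1 lower, against 2849 and 2554 of all 19465 genes. Sums were 53.0 to 65.3 FPKM in young and 52.9 to 55.4 FPKM in old samples, but single markers were uneven. In young replicates 1 to 3 Mobp was at 4.54, 0.179 and 0.443 FPKM, Mog at 1.54, 0.0510 and 0.0566 and Gfap at 6.36, 1.47 and 1.02. In old replicates 1 to 3 Gfap was at 1.08, 3.90 and 0.756 FPKM. The abundant Slc1a2, Aldh1l1 and Aqp4 were not highest in young replicate 1. Of the inhibitory and central neuron markers 4 of 8 were below the filter, among them Gad2 and Slc32a1. Of 9 tested skeletal muscle markers 0 passed (1 higher and 0 lower at an unadjusted limma p below 0.05), with sums of 1.63 to 2.96 FPKM in young samples and 23.5, 4.96 and 3.60 FPKM in old replicates 1 to 3. The part of these cell types in the fall of the channel genes was not tested.

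The genes whose profile over the 6 samples was most like the mean profile of the 7 channel genes were Kif5c, Reep2, Nap1l2, Susd4 and Unc80. Likeness was measured as the root mean square difference of centered log2 values over the 6 samples, among 14978 genes whose mean reached 1 FPKM, and it was 0.0356 for Kif5c, 0.0425 for Reep2, 0.0428 for Nap1l2, 0.0461 for Susd4 and 0.0470 for Unc80, against a median of 0.563 over all candidates. The 7 channel genes themselves were at 0.0376 to 0.115 from their mean. Kif5c, a kinesin motor of neurons, was at 33.6, 43.4 and 24.4 FPKM in young and 18.0, 18.0 and 17.2 FPKM in old samples. Unc80, a part of the sodium leak channel complex, was at 10.8, 13.7 and 8.14 FPKM in young and 5.94, 5.49 and 4.90 FPKM in old samples. Both had the order of the young samples and the narrow range of the old samples that the 7 channel genes had. This follows from the choice of the genes by likeness over the same samples.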

How the data were processed

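Cochlear tissue of 3 young and 3 old samples was analysed by RNA-sequencing. The authors made strand-specific libraries, sequenced them in pairs, and deposited 1 FPKM value per transcript and sample, computed with Cuffdiff 2.1.1 on GRCm38. Per the labels, TopHat2 2.0.9 and Cufflinks 2.1.1 were also used. The annotation release and the scaling between libraries are not given in the sources used here. Transcripts were matched to GENCODE M21 (55275 matched), 404 unmatched Ensembl transcripts were left out, and FPKM was summed per gene. The 992 lncRNAs assembled by the authors were each kept as a gene of their own and are counted among all genes. Depth was estimated from the steps of low FPKM values at 12280000 to 15410000 fragments per sample, where 93.3 to 94.8% of the values lay within 0.1 of a whole step (20% by chance). These estimates cover counting error only.

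Genes and, separately, transcripts whose mean FPKM reached 0.1 were compared by age alone with lmFit and trended eBayes of limma 3.58.1 (R 4.3.3) on log2(FPKM + 0.1), which understates changes of low genes. The test of the paper, Cuffdiff, needs the reads and was not run. Single values were compared by exact permutation tests, two-sided, in Python 3.11.15. The fits were also run on simulated data in which known genes were changed. The simulated noise was independent between genes, so that shifts shared by many genes were not covered. The channel genes and all lists were chosen with earlier results of these data known. In each list the genes past the threshold (the 4 most abundant of them where more passed) and the 3 most abundant genes are named. The 5 genes most like the channel genes are named by their profile. Scn2a, Scn3a, Scn9a, Gad2 and Slc32a1 were named outside this rule, and some named genes and sequences are not reported here. The alternatives were the pseudocount (0.01 and 1), the filter, the scaling, the variance trend, sample weights, a replicate block, single transcripts or coding transcripts per gene, the marker reference, and each sample left out.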

Additional observations from a re-analysis of the deposited data

How the results depend on the processing

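All 126 log2 changes of the 7 channel genes over 18 settings were negative. All 7 were lower in 9 settings, the reported one included. Leaving out young replicate 1, young replicate 2 or any 1 old replicate left 0 of 7, as given beside the result. Without the filter 1 of 7 passed (Kcnc1, limma adjusted p 0.0478 to 0.0640 over the 7) and without the variance trend 0 passed (0.0780 to 0.0990). With the most abundant transcript in place of the sum 5 passed. Over all genes, 284 were higher and 126 lower without the variance trend, and 398 were lower without the filter. Without the filter 6 of the other channel genes, 2 of the axon initial segment and node genes and 7 of the neuron markers were lower. Leaving out 1 sample gave 0 to 7 channel genes, 0 to 695 of all genes lower and 5 to 750 higher, 0 to 14 other channel genes, 0 to 5 node genes, 0 to 14 neuron markers, 0 to 8 Schwann cell markers and 0 to 3 hair cell markers lower, and 1 to 9 macrophage markers higher. Fewer samples leave fewer degrees of freedom. The cause of the other changes was not tested.

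The replicate numbers gave no pairing. Deviations of same-numbered young and old samples correlated over genes at r = 0.03, -0.09 and 0.04. With a replicate block 5 of the 7 channel genes passed (limma adjusted p 0.0412 to 0.0588, with Scn4b and Hcn2 lost), 440 genes were higher and 290 lower, and 6 other channel genes, 2 node genes and 3 Schwann cell markers were lower.

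Relative to the neuron markers, the log2 differences with the median of the markers as reference were 0.0161 for Scn1a, -0.0016 for Scn8a, 0.0405 for Scn4b, 0.15 for Kcna1, 0.0822 for Kcna2 and 0.0940 for Hcn2 (exact permutation p from 0.2 to 1). With the Schwann cell markers they were -0.54 for Scn1a, -0.55 for Scn8a, -0.51 for Scn4b, -0.41 for Kcna1, -0.47 for Kcna2, -0.60 for Kcnc1 and -0.46 for Hcn2. With a pseudocount of 1 the difference of Kcna2 was -0.0854.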
